A study of Rattus norvegicus with 6 samples.

Results

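The γ-tubulin ring complex is described here through the 9 of its genes that were looked up by symbol among 30076 gene symbols: Mzt1, the γ-tubulin genes Tubg1 and Tubg2, the γ-tubulin complex protein genes Tubgcp2 to Tubgcp6, and Nedd1. The set was chosen by the FPKM of Mzt1, which was higher in manipulated than in untreated rats, and the other 8 genes were taken with it as its known partners in the complex. The question was whether the partners shared the rise of Mzt1 and whether that rise went with the stretch of genome over which the gene was measured. RNA came from tissue labelled prefrontal cortex of 6 male F344 rats, 18 months old. The 3 rats of the COM group had cranial osteopathic manipulation, a hands-on treatment of the head, for 7 days under isoflurane at 1.5 to 3%, and the 3 rats of the untreated group received isoflurane without manipulation. A coronal section 1 mm thick was cut from each brain, and each rat gave 1 library, numbered 1 to 3 (untreated) and 4 to 6 (COM). P-values below rest on the spread among 3 rats in each group.

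The γ-tubulin ring complex is the template from which cells start new microtubules. Its core is built from γ-tubulin bound by a family of related γ-tubulin complex proteins, and the small protein encoded by Mzt1 binds the ends of several of these proteins and is needed for the complex to assemble and be recruited. Nedd1 brings the complex to centrosomes and spindles in dividing cells, and in neurons, which no longer divide, the complex also nucleates microtubules away from the centrosome, in dendrites and axons. The libraries hold RNA of whole tissue, so that fewer cells of a type and less RNA per cell cannot be told apart.

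Values are FPKM, the fragments of a transcript relative to its length and to the mapped fragments of the library, as deposited with the lower and upper bound of an interval. Between 17102 and 83180 rows of a table were unnamed loci assembled in that library alone, with 51528 to 83180 in the untreated and 17102 to 36546 in the COM libraries. Tested symbols had a median of 3.98 to 5.50 FPKM in untreated and 2.75 to 4.07 FPKM in COM libraries, and the median difference (COM minus untreated, on the scale log2 of FPKM + 1, called log2 fold change below) was -0.36 over 10657 tested symbols, or 0.0060 after median-ratio scaling between libraries. The tissue carried neuronal markers throughout, with a summed level of 702 to 834 FPKM in untreated and 320 to 936 FPKM in COM libraries. Thalamic and hypothalamic markers summed to 116 to 170 FPKM in untreated and 18.3 to 23.5 FPKM in COM libraries. Limma called 7 of 10 tested markers lower (adjusted p under 0.05), or 5 with median-ratio scaling. Over all tested symbols 0.272% were called lower, or 0.198% with scaling. Pmch and Shox2 had at most 0.125 and 0.311 FPKM in COM libraries and passed the minimum mean of 1 FPKM only through the untreated group. Six3 went the other way, with 1.61 to 3.02 FPKM in untreated and 3.55 to 4.39 FPKM in COM libraries. Striatal medium spiny neuron markers summed to 80.9 to 123 FPKM in untreated and 115 to 288 FPKM in COM libraries. Limma called 0 of 13 tested striatal markers higher as deposited and 1 with median-ratio scaling, against 0.0845% and 0.0943% of all tested symbols. No measured marker of either list was at 0 in all libraries, and the part of these markers in the results below was not tested.

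Mzt1 (chromosome 15, 83431178 to 83442008 at its shortest, Rnor_6.0) stood apart from all its partners. Its level was 3.07, 2.89 and 4.25 FPKM in untreated replicates 1, 2 and 3 and 29.5, 25.1 and 16.3 FPKM in COM replicates 4, 5 and 6. Every COM library lay above every untreated library, and the deposited intervals did not meet either, with 5.09 FPKM the highest upper bound in untreated and 12.0 FPKM the lowest lower bound in COM libraries. The means were 3.400 ± 0.740 FPKM (SD, n = 3) and 23.6 ± 6.68 FPKM, a ratio of 6.95 and a log2 fold change of 2.46 (SE 0.28), or 2.86 (SE 0.15) with median-ratio scaling. These values chose the gene and are given as a description, with no test.

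The γ-tubulin complex proteins 2 and 3 form the small γ-tubulin complex together with γ-tubulin. Tubgcp2 (chromosome 1) had 4.86, 3.59 and 4.25 FPKM in untreated and 3.47, 3.61 and 2.40 FPKM in COM libraries. COM replicate 5 lay just above untreated replicate 2, so that the groups overlapped. Its log2 fold change was -0.34 (SE 0.22), with a limma adjusted p of 0.370. Tubgcp3 (chromosome 16) had 4.10, 2.07 and 2.73 FPKM in untreated and 2.16, 2.14 and 1.38 FPKM in COM libraries. Untreated replicate 1 was the highest and COM replicate 6 the lowest, with overlap between the groups, and the log2 fold change was -0.43 (SE 0.25), with a limma adjusted p of 0.345.

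The products of Tubgcp4, Tubgcp5 and Tubgcp6 are present in fewer copies and complete the full ring. Tubgcp5 (chromosome 1) had 2.87, 2.54 and 3.72 FPKM in untreated and 2.14, 2.25 and 1.76 FPKM in COM libraries. It was the tested partner whose groups did not overlap as deposited, with all COM libraries lower, as were 23.7% of all tested symbols. Its log2 fold change was -0.40 (SE 0.21), with a limma adjusted p of 0.333, and after median-ratio scaling its groups overlapped. Tubgcp6 (chromosome 7) had 3.38, 1.77 and 2.30 FPKM in untreated and 2.06, 2.21 and 1.31 FPKM in COM libraries. Its groups overlapped, and its log2 fold change was -0.27 (SE 0.25), with a limma adjusted p of 0.481. Tubgcp4 (chromosome 3) was listed at 0 in all 6 libraries, while unnamed loci inside its span had 0.632 and 0.423 FPKM in untreated replicate 1 and 0.281 FPKM in untreated replicate 2, so that its level cannot be read from these rows.

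**Figure D1:**
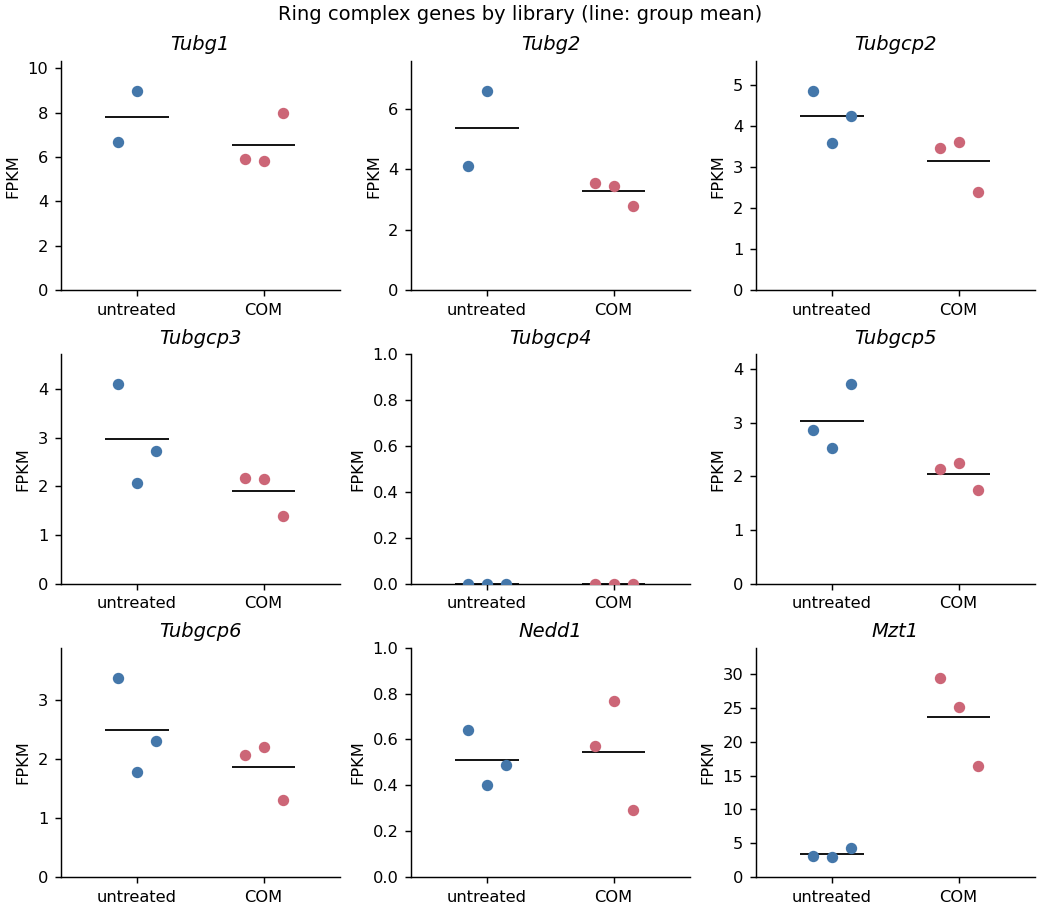
FPKM of the 9 ring complex genes in each library (vertical axes start at 0 and differ between genes; points are libraries, lines group means). Mzt1 has 16.3 to 29.5 FPKM in COM and at most 4.25 FPKM in untreated rats, while the COM means of Tubg1, Tubg2, Tubgcp2, Tubgcp3, Tubgcp5 and Tubgcp6 lie below the untreated means; Tubg1 and Tubg2 share a row in untreated replicate 1 and lack a point there.

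Of the 8 partners, 4 could be tested over the 6 libraries, and 0 of the 4 were called higher or lower by limma, with 0 at an unadjusted p under 0.05 and 0.0931 (Tubgcp5) the smallest. Among all tested symbols 0.0845% were called higher and 0.272% lower. The median log2 fold change of the 4 partners was -0.37, against -0.36 over all tested symbols. With median-ratio scaling it was -0.021, against 0.0060, and Tubgcp2 (0.025) and Tubgcp6 (0.041) then lay above 0 while Tubgcp3 (-0.11) and Tubgcp5 (-0.067) lay below. The SE of these scaled values was 0.080 to 0.13, and limma gave adjusted p of 0.748 to 0.915, where 0.0943% of symbols were called higher and 0.198% lower. After scaling, 0 of the 4 partners had groups that did not overlap, against 10.7% (higher) and 8.95% (lower) of all symbols. A p that misses the threshold does not show that the groups were equal.

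With median-ratio scaling the groups of Tubgcp2 overlapped and those of Mzt1 did not. Scaled Tubgcp2 was 3.62, 3.74 and 3.41 FPKM in untreated and 3.67, 3.66 and 3.68 FPKM in COM libraries. Scaled Mzt1 was 2.28, 3.01 and 3.41 FPKM in untreated and 31.2, 25.5 and 25.02 FPKM in COM libraries. As deposited, the ratio of Mzt1 to the summed FPKM of Tubgcp2, Tubgcp3, Tubgcp5 and Tubgcp6, which needs no scaling between libraries, was 0.202, 0.289 and 0.327 in untreated and 2.99, 2.46 and 2.38 in COM libraries. In every untreated library the 4 partners together thus exceeded Mzt1, and in every COM library Mzt1 exceeded them together. Across the 6 libraries, which share the shift in overall level, Pearson's r between log2 values of 2 of these partners was 0.62 to 0.97 as deposited and -0.92 to 0.79 after scaling, while r between Mzt1 and a partner was -0.69 to -0.38 as deposited and -0.47 to 0.34 after scaling.

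The γ-tubulin genes themselves lie next to each other on chromosome 10 and encode close relatives, of which Tubg1 is the widely expressed form and Tubg2 the one best known from brain. In untreated replicate 1 they were joined in 1 row at 17.5 FPKM, so both were left out of the test over 6 libraries. Where they had rows of their own, Tubg1 had 6.67 and 8.97 FPKM in untreated replicates 2 and 3 and 5.89, 5.81 and 7.96 FPKM in COM libraries, with overlap between the groups. Tubg2 had 4.11 and 6.58 FPKM in untreated and 3.55, 3.46 and 2.79 FPKM in COM libraries, each COM library below both untreated ones. The share of symbols with groups apart was not computed for 5 libraries, and over 6 libraries 23.7% were apart and lower in COM. A fit over these 5 libraries, added after the data were seen, gave a log2 fold change of -0.22 (SE 0.31) for Tubg1 and -0.55 (SE 0.28) for Tubg2, with limma adjusted p of 0.751 and 0.653. In that fit 0.14% of symbols were called higher and 0.29% lower, and its median log2 fold change was -0.29. With median-ratio scaling as well, the values were 0.11 (SE 0.31) and -0.25 (SE 0.13), with limma adjusted p of 0.908 and 0.578. Tubg1 exceeded Tubg2 in each of the 5 libraries, by 1.36 to 1.68 times in 4 of them and by 2.86 times in COM replicate 6. How fragments that match both genes, or a pseudogene of Tubg1, were divided is not given in the sources used here.

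Nedd1 (chromosome 7), the targeting subunit, had the lowest level of the members with a value above 0. It had 0.641, 0.402 and 0.491 FPKM in untreated and 0.573, 0.770 and 0.291 FPKM in COM libraries, with the highest and the lowest value both in the COM group. Its mean was under the minimum of 1 FPKM used for the test. With no filter on low values its log2 fold change was 0.023 (SE 0.14), with a limma adjusted p of 0.935, where 0.0255% of symbols were called higher and 0.0764% lower.

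The stretch of genome covered by the Mzt1 row differed between the groups at 1 end. RefSeq places Mzt1 on the minus strand (GRCr8), so that its transcript ends at the side of lower coordinates. In COM replicates 4, 5 and 6 the row ran over the same 10831 bases. In untreated replicates 1, 2 and 3 it was 13457, 12543 and 13007 bases long, reaching 2547, 1712 and 2080 bases further past the 3' end. At the 5' end the rows differed by at most 96 bases. In 2 of the 3 COM libraries the same stretch past the 3' end held unnamed rows of their own, which covered 1026 bases in replicate 4 and 758 bases in replicate 6, at a summed 6.34 and 4.08 FPKM. COM replicate 5 had no such row, and untreated replicate 2 had 1 of 316 bases beyond its longer Mzt1 row, at 3.63 FPKM. Sequence past the 3' end of the short row was thus counted within Mzt1 in the untreated libraries and outside it in COM replicates 4 and 6.

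**Figure D2:**
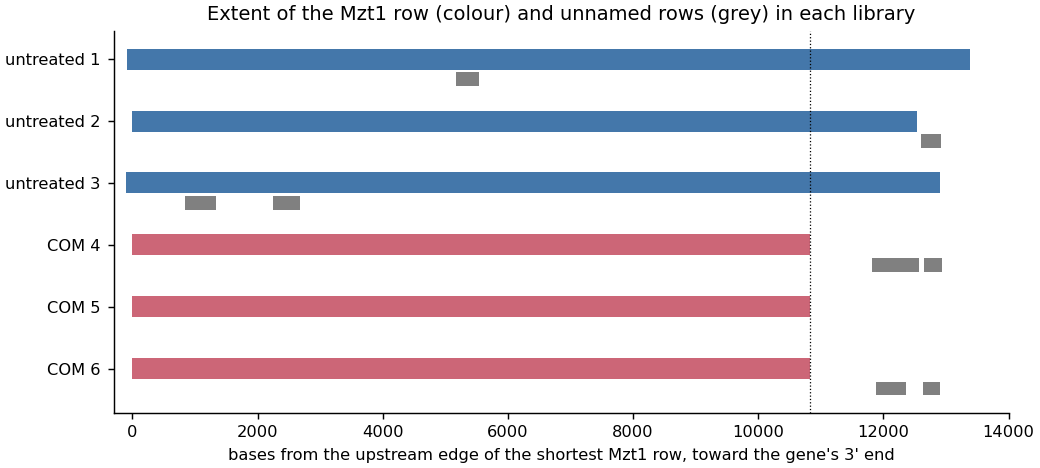
Extent of the Mzt1 row in each library (coloured bars) and of unnamed rows there (grey bars), in bases from the upstream edge of the shortest Mzt1 row, with the dotted line at its other end. The COM rows end at 10831 bases, and the untreated rows go on for 1712 to 2547 bases more.

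The number of fragments behind a row can be estimated from its interval without the length of the transcript. If each bound lies 2 SDs from the value and the count varies as a Poisson variable, the interval narrows in a known way as fragments rise. Numbers implied in this way came out whole within 0.01 for 4.27 to 4.56% of rows of tested symbols. The share was 34.7 to 37.7% of unnamed rows. For most rows of named genes the implied number was thus not whole, so it need not be the fragment count. The numbers for Mzt1 below carry this limit. The implied fragment number of the Mzt1 row was 9.17, 42.7 and 120 in untreated and 85.3, 67.7 and 56.8 in COM libraries. The groups overlapped in it, with the lowest and the highest value both in untreated libraries. The means were 57.1 ± 56.6 (SD, n = 3) and 70.0 ± 14.4, a ratio of 1.22 where the FPKM ratio was 6.95. The ratio was 2.696 without untreated replicate 3 and 0.862 without untreated replicate 1. With the unnamed rows past the 3' end added, the numbers were 9.17, 69.6 and 120 in untreated and 167, 67.7 and 105 in COM libraries, which overlapped as well.

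One FPKM of Mzt1 rested on a different number of implied fragments in the libraries. It took 2.90, 2.697 and 3.48 fragments in COM replicates 4, 5 and 6, against 14.8 and 28.1 in untreated replicates 2 and 3. Untreated replicate 1 went against this order, with 2.99 fragments for 1 FPKM although its row was the longest. Its interval was wide, from 1.04 to 5.09 FPKM. In the COM libraries 6.29 to 6.63% of tested symbols had as few fragments for 1 FPKM as Mzt1 or fewer, where the median symbol had 70.1 to 81.9. In the untreated libraries that share was 5.38, 13.0 and 21.0%.

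**Figure D3:**
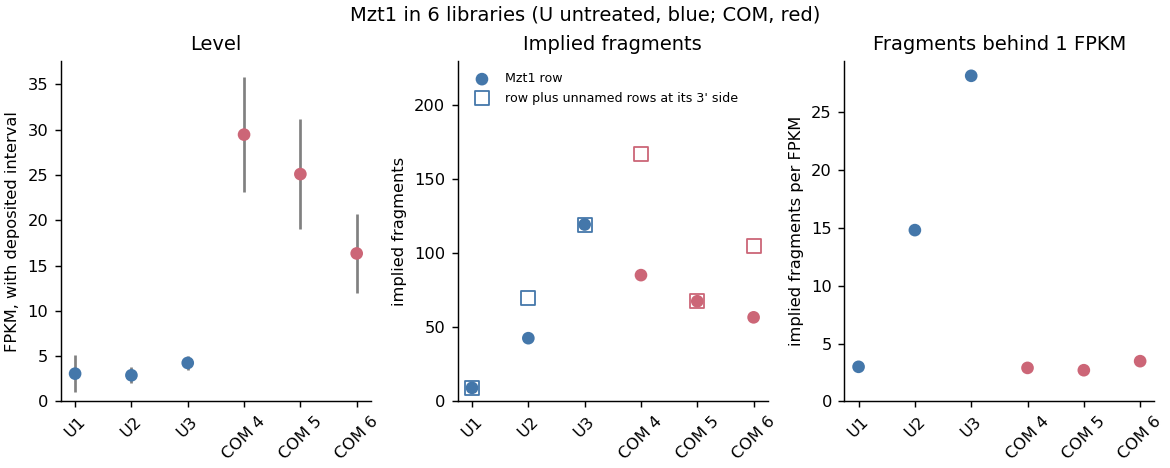
Mzt1 in the 6 libraries: FPKM with its deposited interval (left), implied fragments of the row and of the row plus unnamed rows at its 3' side (middle), and implied fragments for 1 FPKM (right). FPKM separates the groups, at most 4.25 against at least 16.3, while implied fragments of the row overlap, 9.17 to 120 against 56.8 to 85.3.

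Implied fragments were read for the partners in the same way. Among rows of the tested partners and Nedd1, 3 of 30 had an interval far wider than in the other libraries, with under 0.1 of the gene's median fragments for 1 FPKM. These were Tubgcp2 in untreated replicate 3 (0 to 19.7 FPKM), Tubgcp6 in COM replicate 4 (0 to 48.5 FPKM) and Tubgcp3 in COM replicate 6 (0.418 to 2.35 FPKM), and an implied number cannot be read from such rows. In the other rows 1 FPKM took 36.0 to 391 fragments, and the tested partners had 81.0 to 805 fragments. Nedd1 had 19.7 to 97.7 fragments, within the range of the Mzt1 row.

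Row spans also differed between libraries in some partners. Tubgcp3 covered 60655 bases in each library. Tubgcp6 covered 20964 bases in untreated replicate 1 and COM replicate 5 and 27228 to 27521 bases in the other libraries. In both groups the library with the short Tubgcp6 row had the highest level of that gene, 3.38 FPKM among the untreated and 2.21 FPKM among the COM libraries. Tubgcp2 covered 21219 and 21188 bases in COM replicates 4 and 5 and 26096 to 26637 bases in the others, so that its short rows were in COM libraries alone. Its mean span ratio was 0.869, where that of Mzt1 was 0.833, and its FPKM in those 2 libraries, 3.47 and 3.61, lay above that of COM replicate 6. After median-ratio scaling it did not, with 3.67 and 3.66 FPKM in COM replicates 4 and 5 and 3.68 FPKM in COM replicate 6. Tubgcp5 ranged from 35664 to 36345 bases.

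Change in span and change in level were then set side by side across tested symbols. A span counts every base between the ends of a row, introns included, while FPKM is relative to the length of the transcript. The change in transcript length was not measured, so the shares and correlations below cannot decide whether it went with level. Spearman's correlation between the log2 ratio of mean spans and the log2 fold change was 0.044 over 10657 symbols, and Pearson's was 0.061, as a description over symbols that share the same 6 libraries. Of 494 symbols with a shorter span in each COM library than in each untreated one, 50 (10.1%) had a log2 fold change above 0, against 13.0% of all tested symbols. The share above 0 was 21.3% of the 239 symbols with a longer span in each COM library. Where the mean span was over 1.5 times shorter in COM it was 18.1% of 237 symbols, and where it was over 1.5 times longer it was 30.8% of 185. A narrower set of 17 symbols had the same pattern as Mzt1, with the shortest span in each COM library and over 500 bases more in each untreated library. Of these 17, 3 had a log2 fold change above 0 (6 with median-ratio scaling), Mzt1 among them, and the median of the 17 was -0.54. The class was drawn after the Mzt1 pattern and Mzt1 was chosen by its level, so its own place among the 17 is not a result. Of the others, Mir384 (0.76, SE 0.84) and Tmem198 (0.72, SE 0.27) had the highest values and Shox2 (-2.66, SE 0.23) the lowest. Shox2 had 0.0132 to 0.311 FPKM in COM libraries and passed the minimum of 1 FPKM only through the untreated group. Mzt1 aside, since its values chose it, limma called 8 symbols higher. Of these 8, 7 had rows of at most 150 bases, as had 394 of all 10657 tested symbols. Listed at 0 in every untreated library were 7 of the 8, as were 75 of all. These 7 thus passed the minimum of 1 FPKM only through the COM group. The span varied between libraries in 0 of these 8, in 18 of the 29 called lower and in 7748 of all tested symbols.

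**Figure D4:**
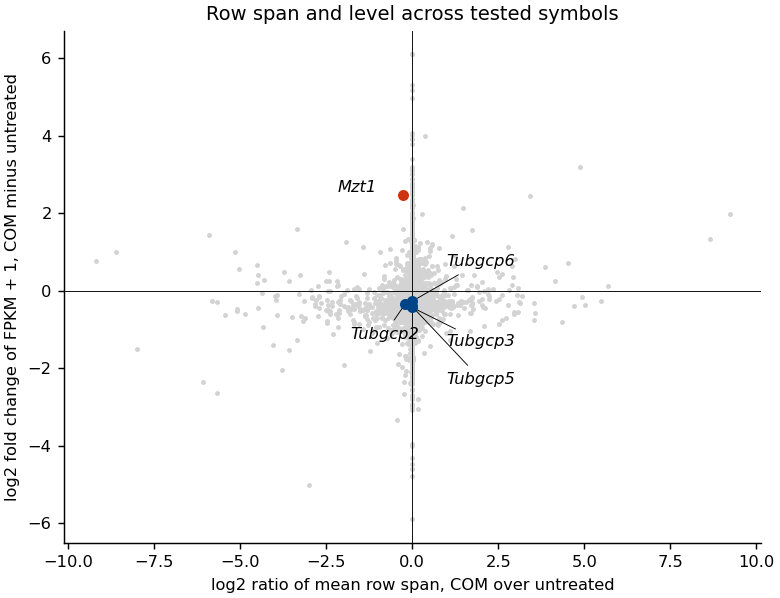
Log2 ratio of mean row span (horizontal) against log2 fold change of FPKM + 1 (vertical) for 10657 tested symbols in grey, with Mzt1 in red and its 4 tested partners in blue. Mzt1 lies at 2.46 with a span ratio of 0.833, and the partners lie between -0.43 and -0.27.

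Neither tested gene beside Mzt1 was called by limma, where 0.0845% of all tested symbols were called higher and 0.272% lower. Both neighbours that could be tested had a log2 fold change below 0, as deposited and with median-ratio scaling. As deposited, 87.0% of all tested symbols lay below 0. Bora, which encodes an activator of the mitotic kinases Aurora A and Plk1, starts 39 to 135 bases beyond the 5' edge of the Mzt1 row and runs the other way. It was listed at 0, 0 and 0.957 FPKM in untreated and at 0.261, 0.803 and 0.165 FPKM in COM libraries, below the minimum for the test and with overlapping groups. Dis3, a ribonuclease of the RNA exosome, had 2.36, 1.23 and 1.54 FPKM in untreated and 1.11, 1.24 and 0.743 FPKM in COM libraries, and the difference on the log2 scale was -0.40 (SE 0.26, limma adjusted p 0.373). Pibf1, a centrosomal protein gene, had 2.42, 1.61 and 2.05 FPKM in untreated and 1.05, 1.13 and 0.653 FPKM in COM libraries. All COM libraries of Pibf1 were lower, as in 23.7% of all tested symbols, and its log2 fold change was -0.64 (SE 0.25), with a limma adjusted p of 0.326. These 3 were the named genes within 100 kb.

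Promoter windows of all 9 genes are in the RefSeq table (GRCr8), and 3 are shown because Mzt1 shares its start region with Bora and because the neighbours Tubg1 and Tubg2 can be set side by side. Each is the 250 bases before the start, 5' to 3' on the gene's own strand. Capitals mark the letters CCAAT (the CCAAT box) and TTTGAA (the core of the cell cycle homology region), each searched on both strands, so that ATTGG and TTCAAA are the same motifs on the other strand. The motifs share no base in these windows. The Mzt1 window is chr15:82205437-82205686 (minus strand), the Tubg1 window chr10:86552893-86553142 (plus strand) and the Tubg2 window chr10:86591360-86591609 (plus strand).
Mzt1: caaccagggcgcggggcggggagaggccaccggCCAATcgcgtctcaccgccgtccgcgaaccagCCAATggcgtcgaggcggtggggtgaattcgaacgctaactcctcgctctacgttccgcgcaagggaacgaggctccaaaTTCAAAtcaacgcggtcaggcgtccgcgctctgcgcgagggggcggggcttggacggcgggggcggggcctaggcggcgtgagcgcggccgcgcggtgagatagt
Tubg1: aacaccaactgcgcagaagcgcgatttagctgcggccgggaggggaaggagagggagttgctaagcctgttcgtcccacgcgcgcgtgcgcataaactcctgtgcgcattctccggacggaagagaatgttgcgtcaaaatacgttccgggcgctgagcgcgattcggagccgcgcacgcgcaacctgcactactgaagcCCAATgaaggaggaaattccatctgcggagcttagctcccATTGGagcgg
Tubg2: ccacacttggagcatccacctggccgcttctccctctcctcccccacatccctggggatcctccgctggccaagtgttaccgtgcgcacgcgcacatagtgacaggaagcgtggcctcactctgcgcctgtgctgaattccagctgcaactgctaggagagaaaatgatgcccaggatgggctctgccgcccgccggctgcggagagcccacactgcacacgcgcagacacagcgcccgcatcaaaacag
CCAAT occurred 2 times before Mzt1, 2 times before Tubg1 and 0 times before Tubg2. It was in 3 of the 9 windows, the other being that of Tubgcp2, and 34.02% of 33469 windows of the same length hold it. TTTGAA occurred once before Mzt1 and in no other window of the 9 genes, against 16.2% of all windows. The GC box GGGCGG, on either strand, was in 3 of the 9 windows, those of Mzt1 (3 times), Tubg2 and Tubgcp4, against 30.5% of all windows. The Mzt1 window was 70.0% G or C, where the median window was 51.2%, and 217 of its 250 bases also belong to the window of Bora on the other strand.

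Other genes of microtubule nucleation were tested as 8 lists of 96 genes in all, 55 of them with a value that could be tested. By limma 0 of the 55 were called in either direction, and 14 had an unadjusted p under 0.05, each lower in COM, where 13.6% of all tested symbols were lower and 1.46% higher at that p. Groups did not overlap in 19 of the 55 (34.5%), each with lower COM values, where the shares over all tested symbols were 23.7% lower and 1.08% higher. Some of the 19 passed the minimum of 1 FPKM only through the untreated group. Haus5, Katna1, Tubd1 and Tube1 had COM means of 0.689, 0.909, 0.652 and 0.585 FPKM, so their place in this count rests in part on that filter. The median log2 fold change of the 55 genes was -0.43, and with median-ratio scaling it was -0.0066, with 27 of 54 above 0. When limma weighted the libraries by their own spread, 7 were called, each lower (Ccdc66, Katna1, Nin, Sclt1, Tbcb, Tbcd and Tube1). Over all symbols 7.55% were called lower and 1.27% higher. Katna1 and Tube1 are among these 7 and among the 14 above, so both counts also rest in part on the 1 FPKM filter.

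Of the other proteins of the ring, Mzt2b, a small relative of Mzt1 that also binds γ-tubulin complex proteins, had 7.15, 6.01 and 8.43 FPKM in untreated and 5.01, 5.62 and 3.46 FPKM in COM libraries. All COM libraries of Mzt2b were lower as deposited, as in 23.7% of all tested symbols, and with median-ratio scaling its groups overlapped. Its log2 fold change was -0.53 (SE 0.24), with a limma adjusted p of 0.326. With scaling it was -0.14, with an adjusted p of 0.634. Nme7, a kinase of the ring, was listed at 0 in all 6 libraries.

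Among proteins that recruit the ring complex, 9 of 10 tested genes had a log2 fold change below 0, as had 87.0% of all tested symbols, with a median of -0.41. With median-ratio scaling 5 of them lay above 0, and the median was -0.016. Untreated rats had 3.69 ± 0.529 FPKM (SD, n = 3) and COM rats 2.04 ± 0.189 FPKM of Ccdc66, a centriolar satellite protein gene. Nin, which encodes ninein and anchors microtubules at the centrosome, had 2.99 ± 0.961 and 1.31 ± 0.183 FPKM, and Cep57 had 4.00 ± 0.963 and 2.42 ± 0.504 FPKM. The limma adjusted p of these 3 genes was 0.309 to 0.326. The augmin complex, which docks the ring on existing microtubules, had 1 tested member, Haus5, with 1.38, 0.898 and 1.74 FPKM in untreated and 0.743, 0.760 and 0.564 FPKM in COM libraries and a limma adjusted p of 0.350.

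Factors at microtubule ends had a median of -0.47 over 13 tested genes, or -0.084 with median-ratio scaling. Katna1, the catalytic subunit of the severing enzyme katanin, had 2.83, 1.57 and 3.21 FPKM in untreated and 0.947, 0.763 and 1.02 FPKM in COM libraries, and the difference on the log2 scale was -0.86 (SE 0.26, limma adjusted p 0.309). Of the microtubule stabilisers, Clasp1 had a mean of 18.1 ± 4.16 in untreated and 11.0 ± 2.52 FPKM in COM rats (SD, n = 3), and Clasp2 had 24.7 ± 7.44 and 14.4 ± 2.56 FPKM. Their limma adjusted p was 0.326 for both.

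Centriole and satellite genes had a median of -0.36 over 14 tested genes, the same as all tested symbols. The 3 with the smallest p were Ssx2ip, with 9.28 ± 2.21 (untreated) and 5.39 ± 0.748 FPKM (COM, both SD with n = 3), Sclt1, with 5.63 ± 2.69 and 2.55 ± 0.813 FPKM, and Cetn3, a centrin gene, with 8.21 ± 1.86 and 4.89 ± 1.68 FPKM. Of the mitotic kinases, 3 could be tested. Nek9, which relays mitotic signals to Nek6 and Nek7, had 4.17 ± 1.04 and 2.83 ± 0.770 FPKM, Nek7 had 8.002 ± 2.79 and 5.91 ± 1.61 FPKM, and Nek6 was listed at 5.17, 2.74 and 0 FPKM in untreated and 2.95, 3.37 and 1.85 FPKM in COM libraries. The limma adjusted p of these 3 kinases was 0.338 to 0.658.

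The other tubulins had a median of -0.26 over 8 tested genes as deposited, with 2 above 0, and of 0.17 with median-ratio scaling, with 6 above 0. Tube1 and Tubd1, which encode the ε- and δ-tubulin of centrioles, had means of 1.76 ± 0.493 and 1.48 ± 0.701 in untreated, against 0.585 ± 0.141 and 0.652 ± 0.128 FPKM in COM rats (SD, n = 3). Tubb3, the neuronal β-tubulin, had 59.0 ± 6.08 and 43.4 ± 8.17 FPKM. Of the folding cofactors that assemble tubulin dimers, Tbcb had 11.4 ± 3.27 and 6.46 ± 1.33 FPKM, Tbcd had 7.97 ± 2.53 and 4.49 ± 0.612 FPKM and Tbcc had 7.52 ± 1.82 and 5.51 ± 1.20 FPKM. None of these 6 genes passed limma over all symbols, with adjusted p of 0.309 to 0.374. The list's highest point, Tuba1c, an α-tubulin gene named after its values were seen, was listed at 0 in untreated replicate 1, with 25.9 and 37.4 FPKM in the other untreated and 17.9 to 25.9 FPKM in COM libraries.

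**Figure D5:**
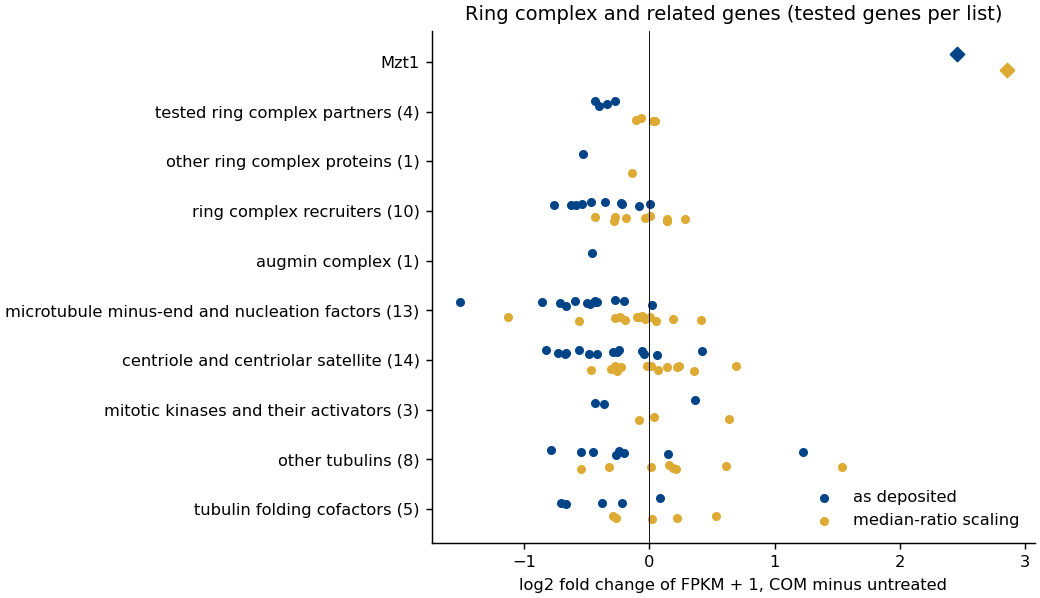
Log2 fold change of FPKM + 1 (COM minus untreated, horizontal axis) of Mzt1, its 4 tested partners and the tested genes of 8 related lists, as deposited (blue) and with median-ratio scaling (yellow). Mzt1 lies at 2.46 and 2.86, and the medians of the 8 lists lie between -0.53 and -0.26 as deposited and, where they could be computed, between -0.14 and 0.17 with scaling.

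Genes of dividing cells were low in both groups. The 10 markers together summed to 8.02 to 12.0 FPKM in untreated and 5.22 to 8.83 FPKM in COM libraries, and 3.97 to 10.1 FPKM of that was Pcna, which is also active in DNA repair. Mki67, a defining marker of division, had 0.141 to 0.396 FPKM in untreated and 0.126 to 0.227 FPKM in COM libraries. Of the 10, only Pcna could be tested, and limma did not call it, where 0.0845% of all tested symbols were called higher and 0.272% lower.

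The genes with the pattern most like that of Mzt1, by Pearson's r of log2 values over the 6 libraries and with clone and locus names left out, were Scn4b (0.988), Lbhd2 (0.988), Sp9 (0.973), Slc10a4 (0.966) and Rpl37a (0.956). Since the groups lay apart in each of these genes, r follows the distance between the groups in all 5. Scn4b, a sodium channel subunit and a marker on the striatal list, had 5.09, 6.17 and 6.07 FPKM in untreated and 18.6, 17.9 and 12.2 FPKM in COM libraries. COM replicate 6 was the lowest of the COM libraries in Scn4b, Lbhd2, Sp9 and Slc10a4, as in Mzt1, and the highest in Rpl37a, a ribosomal protein gene with 200, 188 and 218 FPKM. The summed striatal markers were 277, 288 and 115 FPKM in COM replicates 4, 5 and 6, lowest in replicate 6 as well. Replicate 6 also had the lowest median over tested symbols, 2.75 FPKM against 4.01 and 4.07 FPKM in replicates 4 and 5. A low value there is thus not particular to these genes. The part of the striatal markers in the Mzt1 values was not tested.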

How the data were processed

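RNA sequencing of 6 libraries was analysed, 3 untreated and 3 COM. Per the submitters' processing notes, the authors used STAR 2.7.3a and Cufflinks (version not given in the sources used here) on Rnor_6.0, and deposited FPKM with interval bounds per gene and per locus assembled in that library. The sources used here do not name read totals, annotation release or strandedness. Depth was therefore estimated from interval widths. Over unnamed loci of 400 to 800 bases, the implied total was 3.47e+07 to 3.86e+07 fragments in untreated and 3.40e+07 to 4.29e+07 in COM libraries. It compares libraries and is no read total. Implied numbers came out whole within 0.01 for 34.7 to 37.7% of unnamed rows with fewer than 1000 fragments. For rows of tested symbols the share was 4.27 to 4.56%, so there the numbers need not be fragment counts.

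FPKM was added up over the rows of a symbol. There were 30076 symbols, of which 3254 were joined with another gene in some library. After these, symbols at several places and those with a failed or missing estimate were left out, 26641 remained, and 10657 of them averaged 1 FPKM or more and were tested. Log2(FPKM + 1) was tested with limma 3.58.1 in R 4.3.3 (mean-variance trend, two-sided, Benjamini-Hochberg adjustment over all tested symbols, threshold 0.05). The labels give no batch or date. Median-ratio scaling, other pseudocounts, filters and variance models, weights per library and leaving out each library were tried as alternatives. Fold changes on this scale understate those of low genes. Members and lists were chosen with earlier results of these data known. The genes named were all members and the 3 tested genes of each related list with the smallest p. The 5 most like Mzt1 and the named genes within 100 kb of it were named too. Mir384, Tmem198, Shox2, Pmch, Six3, Nme7, Tuba1c, Mki67 and Pcna were added after their values were seen. Start positions are counted from 1. Python 3.11.15 and matplotlib 3.10.9 made tables and figures.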

Additional observations from a re-analysis of the deposited data

How the results depend on the processing

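No paired analysis was possible because the animals are numbered 1 to 6 and the groups share no number. The other settings tried were pseudocount 0.1, no filter, a minimum of 5 FPKM (which leaves no partner to test) and median-ratio scaling. They also included 2 other variance models, weights per library, joined rows kept, and each library left out. Under these, 0 partners were called, with 0.0651 the lowest adjusted p by limma. Where it was computed, the share of all symbols called ran from 0.0255% higher and 0.0764% lower (no filter) to 1.27% higher and 7.55% lower (weights per library). With so few partners, 0 called does not set them apart from all symbols. Nedd1 lay at 0.023 with no filter. Of the other partners' log2 fold changes, 64 were computed under settings other than those reported first, and 58 of them lay below 0. These settings reuse the same libraries. Settings without median-ratio scaling gave 54 of the 64, all 54 below 0, where 87.0% of all tested symbols lay below 0 as deposited. The 6 values above 0 all came with that scaling. With median-ratio scaling the log2 fold change of Mzt1 was 2.86, the partners' median moved to -0.021, Tubgcp2 (0.025) and Tubgcp6 (0.041) lay above 0, and Spearman's correlation of span and level was 0.062. Over the 5 libraries without untreated replicate 1 with that scaling, a fit added after the data were seen, the median was 0.020, and Tubg1 (0.11), Tubgcp2 (0.031), Tubgcp3 (0.010) and Tubgcp6 (0.14) lay above 0. With weights per library 7 related genes were called, each lower (Ccdc66, Katna1, Nin, Sclt1, Tbcb, Tbcd and Tube1). Over all symbols 7.55% were called lower and 1.27% higher. Katna1 and Tube1 passed the minimum of 1 FPKM only through the untreated group, and the cause of the calls was not tested. Leaving out 1 library gave 2.29 to 2.69 for the log2 fold change of Mzt1, -0.46 to -0.24 for the partners' median, 0.819 to 0.848 for the Mzt1 span ratio and 0.862 to 2.696 for its implied fragment ratio, the highest without untreated replicate 3. An implied fragment number of 9.17 to 120 limits what can be said of Mzt1 in a single library.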
